A study of Mus musculus with 12 samples.

Results

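The genes described here are 9 genes known for their use in cortical thymic epithelial cells (cTECs), Psmb11, Prss16, Ctsl, Ly75, Dll4, Foxn1, Cd83, Tbata and Ackr4. They were picked by name, and each was read through the brightest probe set that carries its symbol alone. Each of the 9 had exactly 1 such probe set, out of 22154 genes measured. The cells themselves were not cortical: they were medullary thymic epithelial cells (mTECs), gated as CD45-negative, Epcam-positive, UEA-positive and Ly51-low, and divided by surface MHC class II into a high fraction, mTEChi, and a low one, mTEClo. The 12 arrays came from C57BL/6 mice aged 4 weeks of 2 lines. In the Aire line, Aire-/- mTEChi and Aire+/+ mTEChi had 2 arrays each, and Aire-/- mTEClo and Aire+/+ mTEClo had 1 array each. In the Brg1 line, Brg1-/- mTEChi and Brg1+/+ mTEChi had 2 arrays each, and Brg1-/- mTEClo and Brg1+/+ mTEClo had 1 array each. Brg1, encoded by Smarca4, is the motor of SWI/SNF, a complex that remodels chromatin, and Aire drives tissue-restricted transcripts in mTECs. The labels do not name what drove the Brg1 deletion or say whether replicates were separate animals or pools. The p-values therefore measure only the spread between these arrays, which may be technical. Each mTEClo group had 1 array, so in the main model that spread came from the mTEChi pairs alone. It was taken to hold for mTEClo too, also in the comparison of the fractions.

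In the thymus, cTECs commit progenitors to the T lineage and select thymocytes whose receptors recognise self peptides, while mTECs display peripheral antigens and delete self-reactive cells. The forkhead factor Foxn1 builds both compartments and drives many cortical genes. Cortical cells cut peptides in ways of their own: Psmb11 encodes the thymoproteasome subunit beta5t, Prss16 the thymus-specific serine protease, and Ctsl cathepsin L, which trims peptides and the invariant chain for MHC class II. Dll4 is the Notch ligand for T-lineage commitment, Ackr4 scavenges the chemokines that draw thymocytes, Ly75 encodes the endocytic receptor CD205, Cd83 stabilises MHC class II at the surface, and Tbata is a regulator named for thymus, brain and testis.

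Array medians over all probe sets lay between 5.07 and 5.32 (log2 intensity). Among mTEChi arrays they lay between 5.07 and 5.12 on those numbered 2, and between 5.26 and 5.28 on those numbered 1. All mTEClo arrays are numbered 1. Aire itself gave 9.01 and 9.73 on the arrays labelled Aire-/- mTEChi, against 8.04 and 8.80 on those labelled Aire+/+ mTEChi. Smarca4 gave 5.44 and 5.88 on Brg1-/- mTEChi arrays, against 6.13 and 6.89 on Brg1+/+ mTEChi arrays. Whether these probe sets fall within the deleted exons was not known, so they do not check the genotypes. No detection call came with the values, and the background level is unknown. Ly75 lay below the array's median gene on 10 arrays, Dll4 on 11 and Ackr4 on 12. In bulk samples such as these, fewer cells of a type and less RNA per cell cannot be told apart.

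The first question was whether the cortical genes differed between the sorted fractions. Of the 9, 1 was higher in mTEChi (Tbata, 2.13-fold) and 1 was lower in mTEChi (Ctsl, 2.58-fold), as averages over the 4 genotypes. The other 7 did not pass the test, and among them are the most cortex-restricted protease genes, Psmb11 and Prss16. Differences were tested with limma over all genes, as the mean of the 4 mTEChi groups minus the mean of the 4 mTEClo groups, with Benjamini-Hochberg adjusted p under 0.05 as the threshold. By that rule 5.78 percent of all genes were called, 3.67 percent higher and 2.11 percent lower. At an unadjusted p under 0.05 the count was 5 of the 9 genes, against 20.1 percent of all genes. The median difference was 0 over the 9 genes and -0.10 over all genes (log2). Among 15 medullary markers measured, 6 were higher in mTEChi and 0 lower: Cd80 was higher in mTEChi by 2.97 (SE 0.267, adjusted p = 0.00118), Cd86 by 2.41 (SE 0.239, adjusted p = 0.00173) and Aire by 2.14 (SE 0.33, adjusted p = 0.0101). Cd80 and Cd86 encode the costimulatory ligands of mature mTECs. Of the 15 markers 13 lay above 0 and 2 below, Krt14 (-0.87) and Epcam (-0.48). The fractions were divided by surface MHC class II, so the class II genes of this list, H2-Eb1 among the 6, are not independent of the gate. With a replicate block within each line, 7 of the 15 markers were higher and 1, Krt14, was lower. The counts were the same on arrays numbered 1 alone, with H2-Aa the added higher gene in both. Of all 22154 genes, 2461 were called with that block and 2084 on arrays numbered 1 alone.

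**Figure D1:**
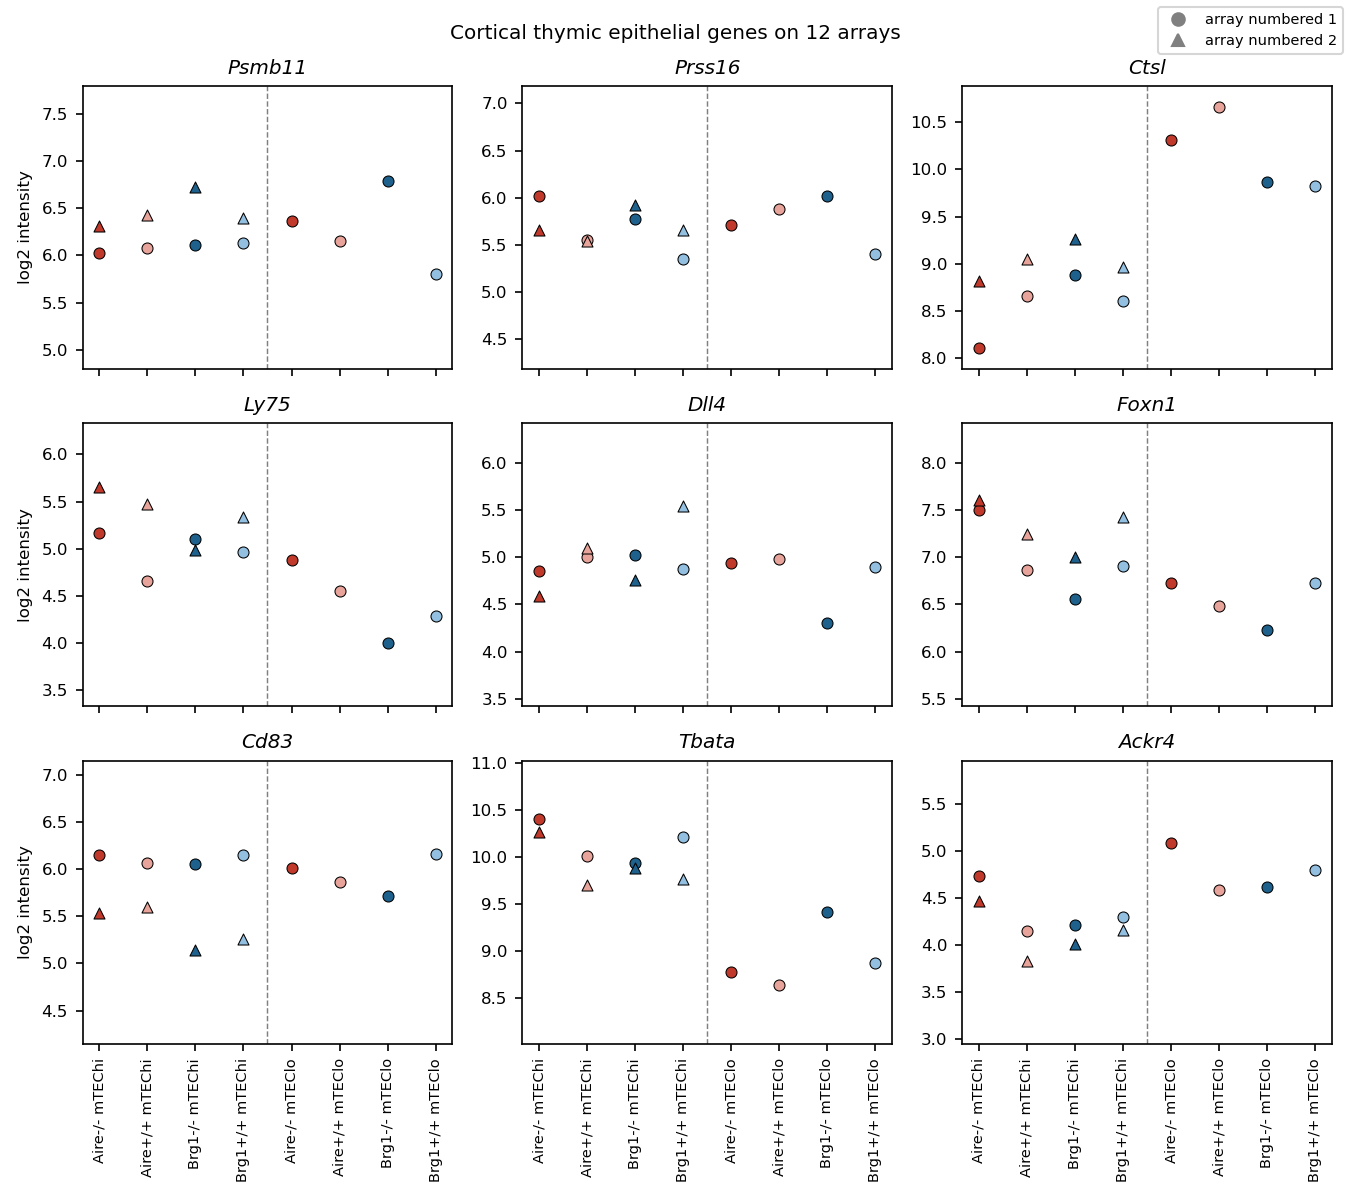
Log2 intensity of the 9 genes (vertical axis, the same span in every panel) in the 8 groups (horizontal axis), with 1 point per array: circles are arrays numbered 1, triangles those numbered 2. Ctsl and Tbata are the panels in which the 8 mTEChi arrays (left of the dashed line) and the 4 mTEClo arrays (right) do not overlap.

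Ctsl, the lysosomal protease, showed the largest difference of the 9. For Ctsl, the Aire-/- mTEChi arrays gave 8.11 and 8.82 (log2 intensity), the Aire+/+ mTEChi arrays 8.66 and 9.05, the Brg1-/- mTEChi arrays 8.88 and 9.26, and the Brg1+/+ mTEChi arrays 8.61 and 8.97. Ctsl in mTEClo was 10.31 in Aire-/-, 10.66 in Aire+/+, 9.87 in Brg1-/- and 9.82 in Brg1+/+. The highest mTEChi array, at 9.26, lay below the lowest mTEClo array, at 9.82, and within mTEClo both arrays of the Aire line lay above both of the Brg1 line. Ctsl was lower in mTEChi by a log2 difference of -1.37 (SE 0.203, 95% interval -1.84 to -0.90, limma adjusted p = 0.00851). On arrays numbered 1 alone, with genotype as a term, the difference was -1.60 (SE 0.225, limma adjusted p = 0.00871).

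Tbata went the other way. For Tbata, the Aire-/- mTEChi arrays gave 10.40 and 10.26, the Aire+/+ mTEChi arrays 10.01 and 9.70, the Brg1-/- mTEChi arrays 9.94 and 9.88, and the Brg1+/+ mTEChi arrays 10.21 and 9.77. Tbata in mTEClo was 8.78 in Aire-/-, 8.64 in Aire+/+, 9.42 in Brg1-/- and 8.87 in Brg1+/+. Every mTEChi array lay above every mTEClo array, and the closest approach was between 9.70 in Aire+/+ mTEChi and 9.42 in Brg1-/- mTEClo. Tbata was higher in mTEChi by 1.09 (SE 0.16, 95% interval 0.72 to 1.47, limma adjusted p = 0.00802), and by 1.21 on arrays numbered 1 alone (SE 0.194, limma adjusted p = 0.0133). Fractions that do not overlap were found for 2 of the 9 genes, against 9.21 percent of all 22154 genes.

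Between the wild types alone, with 4 mTEChi and 2 mTEClo arrays, Tbata was higher in mTEChi by 1.17 (SE 0.226, limma adjusted p = 0.0445) and Ctsl differed by -1.42 (SE 0.287, limma adjusted p = 0.0524), which did not pass. Of all genes, 2.56 percent were called in that comparison, 1.93 percent higher and 0.632 percent lower. At an unadjusted p under 0.05 the counts were 3 of 9 and 12.8 percent. The Tbata call was lost without any 1 of the Aire-/-, Aire+/+ or Brg1-/- mTEChi arrays, without Brg1+/+ mTEChi replicate 1, and without either wild-type mTEClo array (adjusted p up to 0.32). With the replicate number as a block within each line both genes passed, Ctsl at -1.65 (adjusted p = 0.003) and Tbata at 1.29 (adjusted p = 0.00908).

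Foxn1 and Ly75 had higher values in mTEChi on most arrays without passing the test. For Foxn1, the Aire-/- mTEChi arrays gave 7.50 and 7.61, the Aire+/+ mTEChi arrays 6.86 and 7.25, the Brg1-/- mTEChi arrays 6.56 and 7.0, and the Brg1+/+ mTEChi arrays 6.91 and 7.43. Foxn1 in mTEClo was 6.73 in Aire-/-, 6.48 in Aire+/+, 6.23 in Brg1-/- and 6.73 in Brg1+/+. Of the 8 mTEChi arrays 7 lay above all 4 mTEClo arrays, the exception being Brg1-/- mTEChi replicate 1, and the difference was 0.60 (SE 0.183, 95% interval 0.17 to 1.02, limma adjusted p = 0.119). For Ly75, the CD205 gene, the Aire-/- mTEChi arrays gave 5.17 and 5.66, the Aire+/+ mTEChi arrays 4.66 and 5.48, the Brg1-/- mTEChi arrays 5.10 and 4.99, and the Brg1+/+ mTEChi arrays 4.97 and 5.34. Ly75 in mTEClo was 4.88 in Aire-/-, 4.55 in Aire+/+, 4.00 in Brg1-/- and 4.29 in Brg1+/+. Here too 7 of 8 mTEChi arrays lay above all mTEClo arrays, with Aire+/+ mTEChi replicate 1 the exception, and the difference was 0.74 (SE 0.211, 95% interval 0.25 to 1.23, limma adjusted p = 0.098).

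Ackr4, the chemokine scavenger, had lower values in mTEChi. For Ackr4, the Aire-/- mTEChi arrays gave 4.73 and 4.47, the Aire+/+ mTEChi arrays 4.15 and 3.83, the Brg1-/- mTEChi arrays 4.21 and 4.01, and the Brg1+/+ mTEChi arrays 4.30 and 4.16. Ackr4 in mTEClo was 5.08 in Aire-/-, 4.58 in Aire+/+, 4.62 in Brg1-/- and 4.80 in Brg1+/+. Of the mTEChi arrays 7 of 8 lay below all mTEClo arrays, Aire-/- mTEChi replicate 1 being the exception, and the difference of -0.54 (SE 0.153, 95% interval -0.90 to -0.18, limma adjusted p = 0.0984) did not pass. Within each genotype, both mTEChi arrays lay below the mTEClo array for Ackr4, and above it for Foxn1 and Ly75. Both of those comparisons use the same mTEClo array. The share of all genes with such a pattern, or with 7 of 8 mTEChi arrays beyond all mTEClo arrays, was not counted. Neither pattern is therefore read as particular to these genes.

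**Figure D2:**
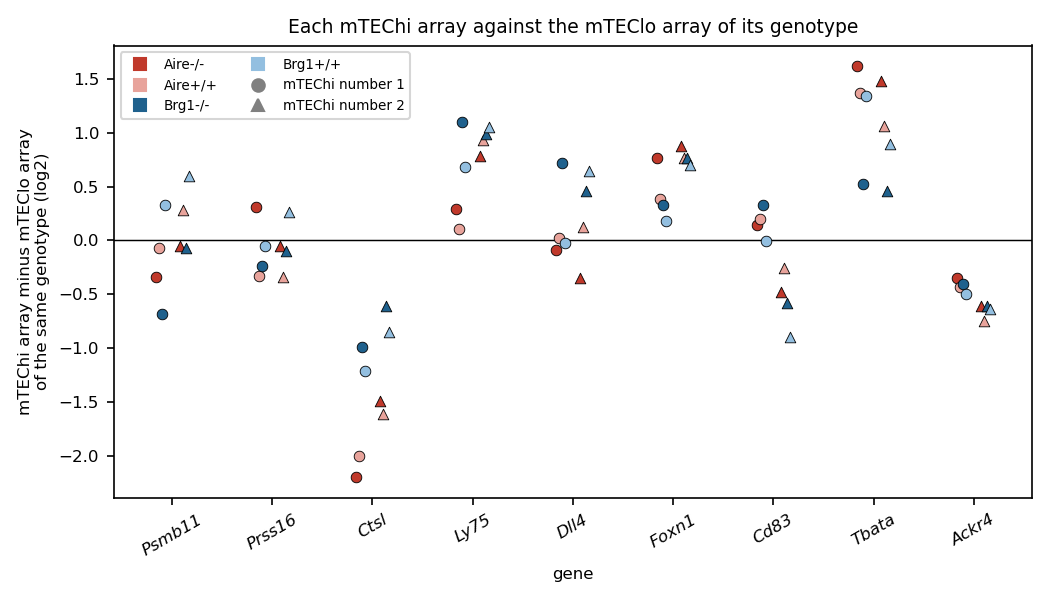
Difference in log2 intensity (vertical axis) between each mTEChi array and the 1 mTEClo array of its genotype, for the 9 genes (horizontal axis); circles are mTEChi arrays numbered 1, triangles those numbered 2, and colours are genotypes. The 8 differences share a sign for Ctsl and Ackr4 (below 0) and for Ly75, Foxn1 and Tbata (above 0). The share of all genes that do so was not counted, and both differences of a genotype use the same mTEClo array.

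The thymoproteasome gene Psmb11 had nearly the same mean in both fractions. For Psmb11, the Aire-/- mTEChi arrays gave 6.02 and 6.31, the Aire+/+ mTEChi arrays 6.08 and 6.43, the Brg1-/- mTEChi arrays 6.11 and 6.72, and the Brg1+/+ mTEChi arrays 6.13 and 6.40. Psmb11 in mTEClo was 6.36 in Aire-/-, 6.15 in Aire+/+, 6.79 in Brg1-/- and 5.80 in Brg1+/+, so the mTEClo arrays held both the highest and the lowest of the 12 values. The difference was 0 with a 95% interval of -0.43 to 0.43. The other 6 catalytic proteasome subunit genes, those of the constitutive and immune proteasomes, gave no call either, and the one with the smallest adjusted p was the immunoproteasome gene Psmb10 (0.41, SE 0.154, limma adjusted p = 0.188).

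The promoter of Psmb11 is shown because it was the only one of the 7 found in the RefSeq promoter table that held the letters GACGC, the core of the site that Foxn1 binds. That of Tbata, a gene that differed between the fractions without these letters, is shown beside it. Both are the 250 bases before the annotated start, on the strand of the gene (plus for both) in build GRCm38.p6, at chr14:54625060-54625309 for Psmb11 and chr10:61171714-61171963 for Tbata. Capitals mark the letters GCGTC, which are GACGC read on the other strand.
Psmb11: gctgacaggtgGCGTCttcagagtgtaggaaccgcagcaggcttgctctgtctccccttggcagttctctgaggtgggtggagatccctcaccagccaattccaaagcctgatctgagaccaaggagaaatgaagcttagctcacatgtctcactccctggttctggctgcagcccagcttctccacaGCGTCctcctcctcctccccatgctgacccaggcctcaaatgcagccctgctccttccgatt
Tbata: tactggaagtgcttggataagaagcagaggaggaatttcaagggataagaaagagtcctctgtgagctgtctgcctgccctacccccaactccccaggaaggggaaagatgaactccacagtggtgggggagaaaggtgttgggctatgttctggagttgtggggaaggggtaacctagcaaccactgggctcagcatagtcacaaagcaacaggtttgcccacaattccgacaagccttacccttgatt
The 2 matches in Psmb11 begin 239 and 62 bases before the start and do not overlap. GACGC was searched on both strands of windows of 300 bases (250 before the start and 50 after it). Over all 32851 windows of that length 27.2 percent held at least 1 match and 8.15 percent held 2 or more. A match describes these letters and not a bound site.

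Prss16, the other cortical protease gene, also overlapped between the fractions. For Prss16, the Aire-/- mTEChi arrays gave 6.02 and 5.66, the Aire+/+ mTEChi arrays 5.55 and 5.54, the Brg1-/- mTEChi arrays 5.78 and 5.92, and the Brg1+/+ mTEChi arrays 5.35 and 5.66. Prss16 in mTEClo was 5.71 in Aire-/-, 5.88 in Aire+/+, 6.02 in Brg1-/- and 5.40 in Brg1+/+. The fractions overlapped over nearly their whole range, and the difference was -0.07 (95% interval -0.43 to 0.29, limma adjusted p = 0.824).

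Dll4 and Cd83 overlapped between the fractions as well. For Dll4, the Notch ligand, the Aire-/- mTEChi arrays gave 4.85 and 4.59, the Aire+/+ mTEChi arrays 5.0 and 5.10, the Brg1-/- mTEChi arrays 5.02 and 4.76, and the Brg1+/+ mTEChi arrays 4.88 and 5.54. Dll4 in mTEClo was 4.94 in Aire-/-, 4.98 in Aire+/+, 4.30 in Brg1-/- and 4.90 in Brg1+/+. Its lowest value was that of Brg1-/- mTEClo and its highest that of Brg1+/+ mTEChi replicate 2, and the difference was 0.19 (95% interval -0.23 to 0.61, limma adjusted p = 0.574). For Cd83, the Aire-/- mTEChi arrays gave 6.15 and 5.53, the Aire+/+ mTEChi arrays 6.06 and 5.60, the Brg1-/- mTEChi arrays 6.05 and 5.14, and the Brg1+/+ mTEChi arrays 6.15 and 5.26. Cd83 in mTEClo was 6.01 in Aire-/-, 5.86 in Aire+/+, 5.72 in Brg1-/- and 6.16 in Brg1+/+. The 4 mTEChi arrays numbered 2 were the 4 lowest of the 12 for Cd83, while the mTEChi arrays numbered 1 lay among the mTEClo arrays. Its difference was -0.20 (95% interval -0.83 to 0.44, limma adjusted p = 0.703), and on arrays numbered 1 alone it was 0.17.

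**Figure D3:**
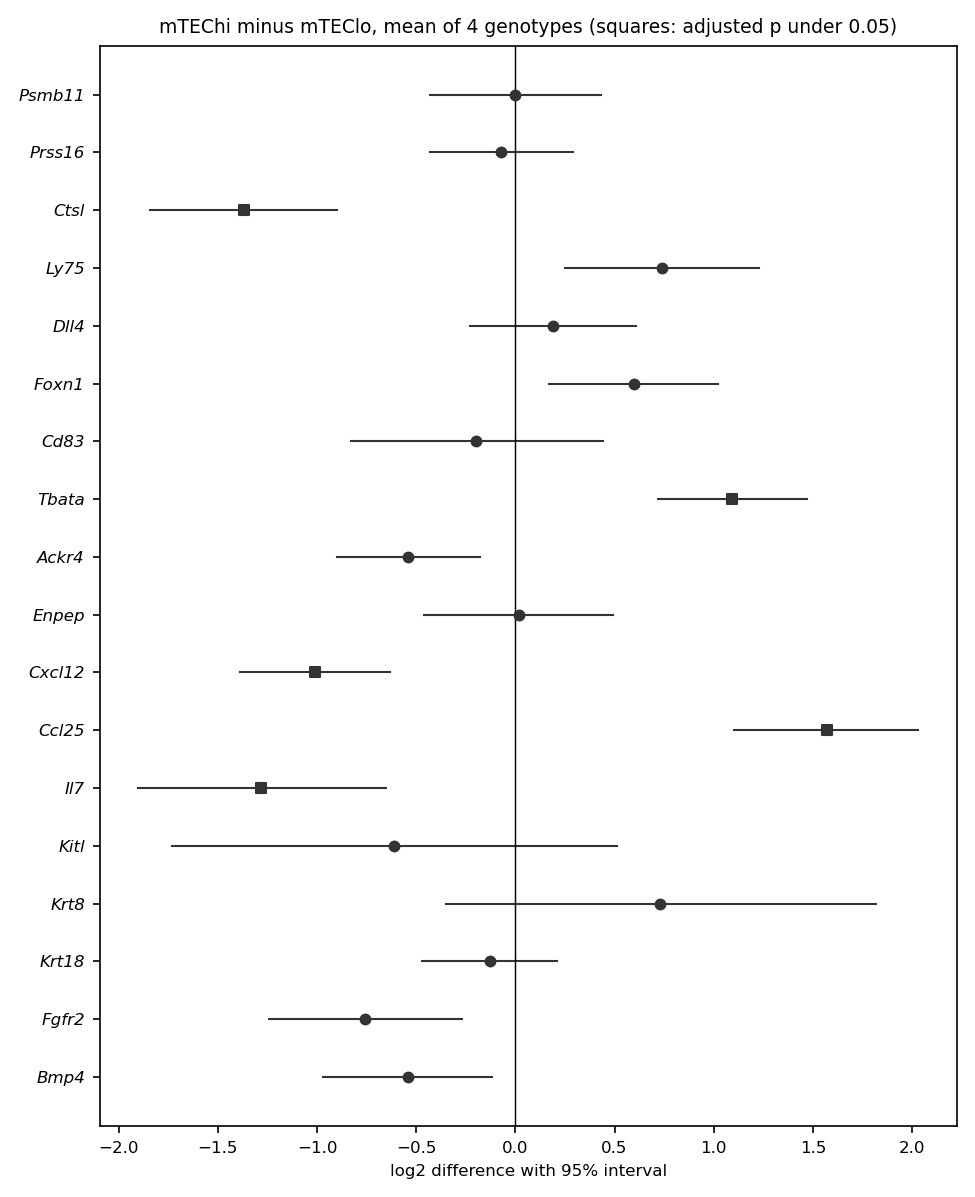
Log2 difference, mTEChi minus mTEClo as the mean of 4 genotypes (horizontal axis, with 95% intervals from limma), for the 9 genes and for 9 further genes of cortical support (vertical axis). Squares passed an adjusted p under 0.05: Ctsl, Cxcl12 and Il7 lie below 0, Tbata and Ccl25 above it.

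Further genes that cTECs use to support thymocytes were also split by direction. Of 9 measured, 1 was higher and 2 were lower in mTEChi, where 3.67 percent of all genes were called higher and 2.11 percent lower. The median difference over this list was -0.54, against -0.10 over all genes. With a replicate block within each line, or on arrays numbered 1 alone, 3 were lower, Fgfr2 being added. Of all 22154 genes, 2461 were called with that block and 2084 on arrays numbered 1 alone. Ccl25, a chemokine that draws progenitors and is scavenged by Ackr4, ranged between 8.0 and 9.08 in mTEChi (median 8.36) and between 6.61 and 6.97 in mTEClo (median 6.88), a difference of 1.57 (SE 0.199, limma adjusted p = 0.00448). Il7, the cytokine that sustains early thymocytes, ranged between 6.42 and 7.55 in mTEChi (median 6.93) and between 7.95 and 8.67 in mTEClo (median 8.25), a difference of -1.28 (SE 0.268, limma adjusted p = 0.0349). Cxcl12, another progenitor chemokine, ranged between 5.19 and 5.77 in mTEChi (median 5.48) and between 6.38 and 6.64 in mTEClo (median 6.48), a difference of -1.01 (SE 0.163, limma adjusted p = 0.0121). These 3 genes were named because they passed on these arrays. None overlapped between the fractions, a separation found for 9.21 percent of all genes. Bmp4, of the same list, did not overlap either (at most 5.43 in mTEChi, at least 5.52 in mTEClo), without passing. On arrays numbered 1 alone, a part of the same arrays, all 3 named genes passed (Ccl25 1.79, Il7 -0.98, Cxcl12 -1.14). Enpep, which encodes the gate antigen Ly51, ranged between 4.27 and 5.06 in mTEChi and between 4.37 and 4.69 in mTEClo, a difference of 0.02 (95% interval -0.46 to 0.49).

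Lysosomal proteases and their helpers were read beside Ctsl. Of 15 measured, 2 were higher in mTEChi and 0 were lower, where 3.67 percent of all genes were called higher and 2.11 percent lower. The median difference over this list was 0.20, against -0.10 over all genes. Ctss, the cathepsin that trims the invariant chain in medullary and bone marrow-derived presenting cells, ranged between 11.10 and 12.14 in mTEChi and between 10.04 and 10.48 in mTEClo. It was higher in mTEChi by 1.4 (SE 0.261, limma adjusted p = 0.0219). Ifi30, the lysosomal thiol reductase, was higher by 0.90 (SE 0.203, limma adjusted p = 0.0462). On arrays numbered 1 alone, Ifi30 no longer passed (0.66, SE 0.161, limma adjusted p = 0.0502), and Ctss did (1.04, SE 0.16, limma adjusted p = 0.0117). Ctsz was also called higher there and Ctsa lower, so 2 of the 15 were higher and 1 lower. Of all 22154 genes, 2084 were called on those arrays. With a replicate block within each line 4 of the 15 were higher, Ctsh, Ctss, Ctsz and Ifi30, where 2461 of all genes were called. Ctsl was lower and Ctss higher in mTEChi, on the same arrays.

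Other genes around the 9 were also read between the fractions, where the main model called 5.78 percent of all genes. Of 18 Notch pathway genes besides Dll4, 0 were higher and 1 was lower in mTEChi, the Notch target Hes1. Hes1 differed by -0.94 (SE 0.196, limma adjusted p = 0.0342) and ranged between 5.41 and 6.49 in mTEChi, against 6.74 and 7.33 in mTEClo. Of the 18, 16 lay below 0 and 2 above, with a median of -0.24 against -0.10 over all genes. Of 7 thymic epithelial transcription factor genes besides Foxn1 none passed in limma. All 7 lay below 0, with a median of -0.47, and Eya1 was nearest the threshold (-0.82, SE 0.216, adjusted p = 0.0788). Of 7 measured chemokines and receptors around Ackr4, 1 was higher, Ccl25 again. With the replicate number as a block within each line, Eya1 passed (-1.05, SE 0.145, limma adjusted p = 0.00411), and 3 chemokine axis genes were higher and 1 lower. Of all 22154 genes, 2461 were called with that block. Eya1 and Trp63 passed on arrays numbered 1 alone, both lower in mTEChi. There too 3 chemokine axis genes were higher and 1 lower, and 2084 of all genes were called.

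Markers of other cells had different ranges in the fractions, although none passed over all 12 arrays without a replicate block. Their part in these results was not tested. Of 12 thymocyte markers none passed (smallest limma adjusted p = 0.0559, for Cd3g), and their mean log2 level ranged between 5.27 and 6.54 in mTEChi and between 5.10 and 5.23 in mTEClo. The log2 of their summed intensity ranged between 9.20 and 11.28 in mTEChi and between 8.80 and 9.12 in mTEClo, highest on Brg1-/- mTEChi replicate 2. Of 11 dendritic cell, macrophage and B cell markers, which matter because dendritic cells also use Ly75 and Cd83, none passed, and their mean ranged between 5.55 and 5.70 in mTEChi and between 5.32 and 5.39 in mTEClo. The macrophage gene Lyz2 differed by 0.96 (SE 0.296, limma adjusted p = 0.12) and the B cell gene Ms4a1 by 0.84 (SE 0.28, limma adjusted p = 0.148). Over the list 9 of 11 lay above 0, with a median of 0.23, and the dendritic cell integrin gene Itgax lay below 0 (-0.18). Of 10 fibroblast and endothelial markers none passed, and their mean ranged between 5.58 and 5.97 in mTEChi and between 5.95 and 6.29 in mTEClo. In this list 9 lay below 0 and 1 above, with a median of -0.25 against -0.10 over all genes. With the replicate block within each line 1 marker of each list passed: Ptprc (-0.70, limma adjusted p = 0.0385) and Lum were lower in mTEChi, and Ms4a1 (1.19, limma adjusted p = 0.00529) was higher. Of all 22154 genes, 2461 were called with that block. On arrays numbered 1 alone the thymocyte gene Cd3d, Ms4a1 and Siglech passed, all higher in mTEChi, where 2084 of all genes were called.

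The second question was whether loss of Aire moved the cortical genes. None of the 9 passed in mTEChi, where 0.794 percent of all genes were called by limma, 0.0226 percent higher and 0.772 percent lower. By unadjusted p under 0.05 the count was 1 of 9, against 5.46 percent of all genes. Differences in Aire-/- minus Aire+/+ mTEChi lay between -0.39 (Ctsl) and 0.61 (Ackr4), with a median of 0.30 against 0.06 over all genes. In Ackr4, both Aire-/- arrays, at 4.73 and 4.47, lay above both Aire+/+ arrays, at 4.15 and 3.83 (0.61, SE 0.25, 95% interval 0.03 to 1.19, limma adjusted p = 0.852). Aire-/- arrays also lay above Aire+/+ arrays for Foxn1 (0.50, SE 0.299, 95% interval -0.20 to 1.2), Tbata (0.48, SE 0.261, 95% interval -0.13 to 1.08) and Prss16 (0.30, SE 0.252, 95% interval -0.29 to 0.88), and lay below them for Dll4 (-0.33, SE 0.293, 95% interval -1.02 to 0.36), each with a limma adjusted p of 1. Such separation of 2 arrays against 2, found for 5 of the 9, was found for 27.5 percent of all genes in this comparison. Psmb11 differed by -0.09 (95% interval -0.79 to 0.61), Ly75 by 0.34 (95% interval -0.46 to 1.15), and Cd83 by 0.01 (95% interval -1.02 to 1.04). Leaving out 1 array moved these differences to between -0.27 and 0.08 for Psmb11, -0.07 and 0.75 for Ly75, -0.30 and 0.32 for Cd83, and -0.75 and -0.04 for Ctsl. Among fibroblast markers, Lum differed by 1.38 (SE 0.451, limma adjusted p = 0.532) and Dcn by 0.88 (SE 0.239, limma adjusted p = 0.319). Of the 10 fibroblast and endothelial markers 6 lay above 0 and 4 below, with a median of 0.10 against 0.06 over all genes. In mTEClo, with 1 array each, Lum differed by -0.97 and Dcn by -0.95, the other direction. The mean log2 level of the 10 fibroblast and endothelial markers was 5.96 and 5.97 in Aire-/- mTEChi, against 5.67 and 5.75 in Aire+/+ mTEChi, and the log2 of their summed intensity was 10.69 and 10.72, against 9.95 and 10.08. Their part in the differences of the 9 genes was not tested. In mTEClo, with 1 array each, the differences lay between -0.35 (Ctsl) and 0.50 (Ackr4), and none passed when each lone array was taken to vary like the mTEChi groups (0 percent of all genes called by limma, 1.35 percent at an unadjusted p under 0.05, and 0 of the 9).

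**Figure D4:**
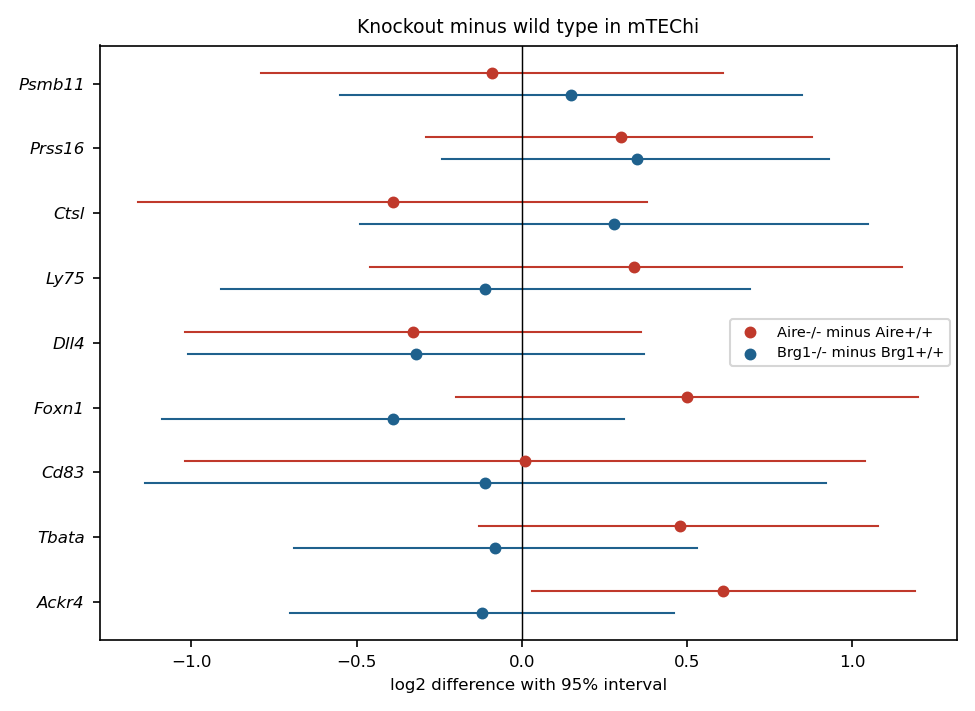
Log2 difference, knockout minus wild type in mTEChi (horizontal axis), for the 9 genes (vertical axis), with 95% intervals from limma (n = 2 arrays per group); the Aire line is drawn above the Brg1 line for each gene. All intervals but 1, that of Ackr4 in the Aire line, include 0, and no gene passed an adjusted p under 0.05.

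The third question was whether loss of Brg1 moved them. None of the 9 passed in Brg1-/- minus Brg1+/+ mTEChi, where limma called 0 percent of all genes (301 genes, or 1.36 percent, at an unadjusted p under 0.05, and 0 of the 9). The differences lay between -0.39 (Foxn1, SE 0.299, 95% interval -1.09 to 0.31) and 0.35 (Prss16, SE 0.252, 95% interval -0.24 to 0.93), with a median of -0.11. In Prss16 both Brg1-/- arrays, at 5.78 and 5.92, lay above both Brg1+/+ arrays, at 5.35 and 5.66. It was the 1 gene of the 9 whose arrays did not overlap, against 19.4 percent of all genes. Ctsl differed by 0.28 (95% interval -0.49 to 1.05), Tbata by -0.08 (95% interval -0.69 to 0.53) and Psmb11 by 0.15 (95% interval -0.55 to 0.85). Leaving out 1 array moved these to between 0.09 and 0.47 for Ctsl, -0.30 and 0.14 for Tbata, and -0.15 and 0.46 for Psmb11. The count of genes at an unadjusted p under 0.05 was 1289 with a replicate block within each line, with limma still calling 0 genes. That count also changed when 1 Brg1+/+ mTEChi array was left out, which leaves 1 array in its group. In mTEClo Psmb11 had the widest gap of the 9, at 6.79 in Brg1-/- and 5.80 in Brg1+/+, a difference of 0.99 between 1 array and 1 array (SE 0.426, limma adjusted p = 1). Prss16 read 6.02 in Brg1-/- mTEClo, against 5.40 in Brg1+/+ mTEClo, a difference of 0.62 (SE 0.357, limma adjusted p = 1). Limma called 0 percent of all genes in that comparison, 1.72 percent at an unadjusted p under 0.05, with 0 of the 9 in either count.

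In both knockouts, limma called 0 genes in mTEChi in each of the lists named above, from cortical support to fibroblast markers. Over all genes it called 0.794 percent for Aire and 0 percent for Brg1, so these counts show nothing particular to the lists. The knockouts were also compared with each other. For the Brg1 effect minus the Aire effect in mTEChi, the 9 differences lay between -0.89 (Foxn1) and 0.67 (Ctsl), and none passed, against 0.135 percent of all genes in limma (3.68 percent at an unadjusted p under 0.05, with 0 of the 9). Foxn1 was the gene with the smallest unadjusted p (-0.89, SE 0.422, 95% interval -1.88 to 0.10, limma adjusted p = 1): its difference was 0.50 for Aire-/- minus Aire+/+ mTEChi and -0.39 for Brg1-/- minus Brg1+/+ mTEChi. Whether a knockout altered the difference between fractions was tested too. For Aire the change in that difference lay between -0.30 (Psmb11) and 0.46 (Prss16). For Brg1 it lay between -0.84 (Psmb11) and 0.33 (Cd83), and none passed in either. Limma called 0 percent of all genes in each, and at an unadjusted p under 0.05 it called 2.47 percent for Aire and 1.34 percent for Brg1, with 0 of the 9 in both.

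The 9 genes did not follow each other across the arrays. Pearson's r over the 12 arrays, given as a description of arrays that share fraction, line and number, ranged between -0.953 and 0.838 over the 36 pairs, with a median of -0.109. The lowest was that of Ctsl and Tbata (-0.953, and -0.808 within the 8 mTEChi arrays) and the highest that of Ly75 and Foxn1 (0.838, and 0.702 within mTEChi). Psmb11 and Prss16 had an r of 0.476 over the 12 arrays and 0.145 within mTEChi. Tbata and Ackr4 had an r of -0.497 over the 12 arrays and 0.92 within mTEChi, and Ctsl and Ackr4 one of 0.458 over the 12 and -0.832 within mTEChi, so these relations turn round when the fractions are held apart.

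For each gene the closest partners were sought among 9714 genes with a range of at least 1 over the 12 arrays. Tbata was closest to Ccl25 (r = 0.959, and 0.935 within mTEChi), a gene from the list of cortical support genes already described. Ctsl was closest to Plek2 (0.98), Ly75 to Hhatl (0.952), Foxn1 to Ehd1 (0.973), Ackr4 to Thbd (0.943) and Cd83 to Fasl (0.967). Psmb11 (Nufip2, 0.874), Prss16 (Zfp28, 0.859) and Dll4 (Lrrc15, 0.892) had the lowest top values of the 9. These values describe 12 arrays that share fractions and numbers, and no test was made.

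Arrays numbered 2 differed from those numbered 1 within mTEChi for 6 of the 9 genes in the same direction in all 4 genotypes (66.7 percent), against 50.3 percent of all genes. Values on number 2 lay below those on number 1 for Cd83 (mean difference -0.72), Tbata (-0.24) and Ackr4 (-0.23). They lay above for Ctsl (0.46), Psmb11 (0.38) and Foxn1 (0.36). A mean over 1 in size was found for 0 of the 9 and for 6.74 percent of all genes. The labels do not say what the number stands for. The mean log2 level of the thymocyte markers lay between 5.70 and 6.54 on mTEChi arrays numbered 2 and between 5.27 and 5.69 on those numbered 1, and its part in these differences was not tested. For Cd83 and Psmb11 the difference between numbers was larger than the average difference between fractions, whereas for Ctsl and Tbata it was smaller.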

How the data were processed

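Values were those of 12 single-channel Affymetrix gene arrays. The values as deposited are linear intensity, for 33732 probe sets. RMA is named in the submitters' processing notes, as are Expression Console and, separately, the Transcriptome Analysis Console, without version or order. The deposited values are 2 raised to numbers in steps of 0.01, so log2 was taken with no pseudocount and no further normalization. The annotation gave 1 symbol to 23491 probe sets, several to 1811 and none to 8430; the brightest per gene was kept (22154 genes). Dll4 has 1 more probe set shared with another symbol, not used here.

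One limma model (3.58.1, R 4.3.3; lmFit, eBayes) of 8 group means over 12 arrays was fitted to all genes, two-sided, with 4 residual and 3.46 prior degrees of freedom; intervals are 95%. Groups came from the labels. The fit was tested on simulated arrays. The 9 genes and the lists were chosen with earlier results of these data known; the 9, list members nearest the threshold, gate and target genes, and closest partners were named by rule. Promoters were from RefSeq (GRCm38.p6), 7 of 9 found. The model held no term for the replicate number, which the labels do not explain. In mTEChi, number differences correlated across genes between every pair of genotypes (r 0.552 to 0.657), so values with the number as a block, or on arrays numbered 1 alone, stand beside results whose call they change; for the list genes these were added after seeing the data.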

Additional observations from a re-analysis of the deposited data

How the results depend on the processing

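The count of cortical genes called between mTEChi and mTEClo over 4 genotypes was 2, Ctsl and Tbata, under all 21 alternatives, with Ctsl between -1.60 and -1.21 (adjusted p up to 0.0342) and Tbata between 0.94 and 1.30 (adjusted p up to 0.0333). Between the wild types the count was 1. It was 2 with a replicate block within each line or common to both lines, on arrays numbered 1 only, with quantile normalization and over genes with a mean of 5 or above, and 0 with an intensity trend; leaving out 1 array gave 0 to 1. Counts for each knockout, for the difference between knockouts and for the changes in the fraction difference were 0 under every alternative that could be fitted. The replicate block within each line raised the genes called from 1280 to 2461 (fractions, 4 genotypes; 2763 with a common block, 2084 on arrays numbered 1, and 800 without Aire+/+ mTEClo), from 567 to 1534 (wild types; 1757, 957, and 80 without Aire+/+ mTEClo), from 176 to 531 (Aire, mTEChi; 569, and 53 without Aire+/+ replicate 1) and from 30 to 201 (difference between knockouts; 228, and as few as 4 with 1 mTEChi array left out). For the Aire change in the fraction difference it called 63 genes against 0, and for Aire in mTEClo 3 against 0. Beyond Ctsl between the wild types it changed no call of the 9 genes. Leaving out an mTEClo array drops its genotype from the fraction averages and leaves no value for knockout effects in that line's mTEClo. The intensity floor is not known, which limits Ly75, Dll4 and Ackr4 most.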
